A study of Homo sapiens with 16 samples.

Results

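The 9 genes studied here encode ovarian cancer antigens, proteins that tumours of the ovary carry on their surface or release into serum. Their RNA was followed in 2 ovarian carcinoma cell lines with and without the PARP inhibitor olaparib. The members are MUC16, MUC1, MSLN, FOLR1, WFDC2, CDH6, SLC34A2, F3 and L1CAM, which were taken by symbol from the count table and make up 9 of its 59428 genes. The rule uses symbols and no measured value, but the members were chosen with earlier results of these data known. All 9 were in the table and all 9 passed the filter on low counts in each of the 5 comparisons.

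These proteins fall into a few families. MUC16 and MUC1 are membrane mucins, long glycoproteins whose outer part is cut off and reaches the blood, where it is measured as CA125 and CA15-3. Mesothelin (MSLN) is held in the membrane by a GPI anchor and binds MUC16, and the folate receptor FOLR1 is held in the same way and takes up folate. WFDC2 encodes HE4, a small secreted protein that is read together with CA125 in the clinic. The cadherin CDH6, the sodium-phosphate cotransporter SLC34A2 (NaPi2b), tissue factor (F3), which starts coagulation, and the adhesion molecule L1CAM are surface proteins against which antibodies or antibody-drug conjugates have been made.

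OVCAR3 has an intact BRCA1 gene and UWB1.289 carries a deleterious BRCA1 mutation. Olaparib was given for 96 h, to OVCAR3 at 7.5 µM and to UWB1.289 at 3.5 µM, and the controls received the solvent DMSO for the same time. OVCAR3 grew in RPMI1640 with 20% FBS and 0.01 mg/ml bovine insulin, and UWB1.289 grew in 47.5% MEGM and 47.5% RPMI1640 with 3% FBS. Each of the 4 groups has 4 libraries, 16 in all. There is 1 line per BRCA1 status, so the effects of the line, its BRCA1 status, the dose and the medium cannot be told apart. The labels give 4 repeats per group without saying that each is a separate culture, and the p-values then measure the spread between these repeats.

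Total counts ranged from 5599571 to 7730228 per library, with a median of 6413979.5. The libraries are 3' tag libraries, with reads from the ends of polyadenylated transcripts. Levels are given here as CPM, which are counts scaled to a common library size with the TMM method over all 16 libraries, and they were compared between libraries but not between genes. The mitochondrial share of the counts lay between 10.4% and 13.7% over all libraries. The carcinoma genes PAX8 and EPCAM were present in all groups, at 277 CPM or more on average, whereas WT1 and ESR1 had at most 3 counts in every UWB1.289 library. The fibroblast genes DCN, LUM and PDGFRB had at most 3 counts in every library. Several marker sums moved with olaparib with no overlap between the treatments. In UWB1.289 the 6 leukocyte markers summed to 8.45 to 11.6 CPM with DMSO and 14.6 to 20.9 CPM with olaparib. Most of that sum was PTPRC, at 6.14 CPM on average with DMSO and 7.89 CPM with olaparib, and CD14, at 3.17 and 7.71 CPM. CD68 was at 0.594 and 1.64 CPM, and CD3E, CD79A and LYZ had 3 or fewer counts in each of these libraries. In OVCAR3 the 6 markers summed to at most 1.82 CPM. The 5 fibroblast markers summed to 43.9 to 61.0 CPM with DMSO and 25.3 to 31.7 CPM with olaparib in UWB1.289. Most of that sum was COL1A2, at 48.5 CPM on average with DMSO and 23.6 CPM with olaparib. In OVCAR3 the sum moved the other way, from 22.2 to 30.7025 CPM with DMSO to 30.7034 to 39.4 CPM with olaparib. The 11 carcinoma markers summed to 8182 to 8760 CPM with DMSO and 6487 to 7903 CPM with olaparib in UWB1.289, and to 4879 to 5019 and 3089 to 3367 CPM in OVCAR3. The keratin KRT18 was lower with olaparib in OVCAR3, at 884 ± 81.5 against 1796 ± 68.3 CPM (SD, n = 4). KRT8 was lower there as well, at 401 ± 57.8 against 834 ± 113 CPM. Of the carcinoma markers only KRT7 was higher on average in OVCAR3, at 394 CPM with olaparib against 346 CPM. The largest part of the UWB1.289 sum was KRT18, at 4203 CPM on average with DMSO and 3180 CPM with olaparib. KRT7, KRT8 and KRT19 were also lower on average in UWB1.289, and the other carcinoma markers were not. Whether these differences in marker levels bear on the antigens was not tested.

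The first question was which antigens changed with olaparib in each line. A gene passed the test at an adjusted p below 0.1 (edgeR's quasi-likelihood test, Benjamini-Hochberg adjustment over all genes tested) with an average normalized count above 10, and it was called differentially expressed when the change also exceeded 2-fold. In OVCAR3, WFDC2, MUC1 and L1CAM rose and FOLR1, CDH6 and MUC16 fell, so 6 of 9 antigens passed the test, and FOLR1 alone was called, at a 2.16-fold decrease. In UWB1.289, MUC1 and MUC16 rose and CDH6 fell, so 3 of 9 passed, and MUC1 alone was called, at a 2.03-fold increase. A fit with the replicate number as a block takes UWB1.289 libraries of the same number as pairs, which the labels do not state. With this block FOLR1 and WFDC2 passed there as well and 5 of 9 antigens passed, with MUC1 still the only one called. The share of all genes that passed with the block is not given here, so the rise from 3 to 5 is not set against it. MUC16 went down in OVCAR3 and up in UWB1.289, and the difference between the lines passed its own test. RNA was taken from whole cultures, so a smaller share of cells that make a transcript and less of it per cell cannot be told apart.

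Among all genes, 31.2% of the 13031 tested passed in OVCAR3, 15.3% higher and 15.9% lower with olaparib, and 5.23% were called, 2.9% higher and 2.33% lower. In UWB1.289, 13.8% of 12748 passed, 7.71% higher and 6.1% lower, and 2.21% were called, 1.93% higher and 0.282% lower. The groups did not overlap for 4 of 9 antigens in OVCAR3, with 25.7% of all genes tested, and for 1 of 9 in UWB1.289, with 14.7% of all genes tested. The median log2 fold change of the 9 antigens was 0.20 in OVCAR3 and -0.03 in UWB1.289, beside -0.01 and -0.00 over all genes tested.

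**Figure D1:**
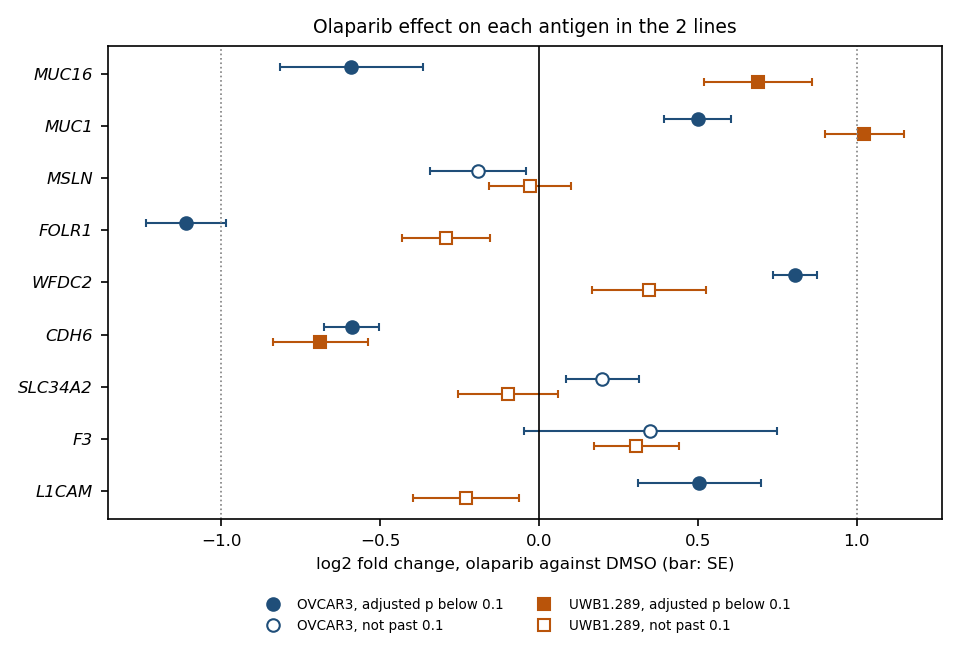
Log2 fold change of each antigen with olaparib against DMSO (x axis) in OVCAR3 (circles) and UWB1.289 (squares), with bars for the SE; filled symbols passed an adjusted p of 0.1 and dotted lines mark a 2-fold change. FOLR1 in OVCAR3 (-1.11) and MUC1 in UWB1.289 (1.02) lie beyond a dotted line, and MUC16 lies on opposite sides of 0 in the 2 lines.

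Among the mucins, MUC16 encodes the CA125 antigen (ENSG00000181143, GRCh38 chromosome 19, 8848844 to 9010390, reverse strand, 84 exons). In OVCAR3 its level with DMSO was 356, 106, 176 and 201 CPM in replicates 1 to 4, and with olaparib 140.0, 121, 115 and 179 CPM. In UWB1.289 it was 25.0, 53.2, 27.1 and 40.4 CPM with DMSO and 55.8, 48.6, 60.2 and 69.6 CPM with olaparib. The OVCAR3 groups overlapped, with DMSO replicate 1 the highest of all libraries and DMSO replicate 2 below every olaparib library, and in UWB1.289 only DMSO replicate 2 reached into the olaparib range.

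MUC16 fell in OVCAR3, from 209.7 ± 105.5 to 138.8 ± 29.0 CPM (SD, n = 4), a log2 fold change of -0.59 (SE 0.225, adjusted p = 0.0628 in edgeR). It passed in 3 of the 8 fits with 1 library left out. Without DMSO replicate 1 the log2 fold change was -0.21 (adjusted p = 0.426 in edgeR), and DESeq2 gave an adjusted p of 0.348. In UWB1.289 MUC16 rose from 36.4 ± 13.1 to 58.5 ± 8.78 CPM, a log2 fold change of 0.69 (SE 0.170, adjusted p = 0.0114 in edgeR). It passed the edgeR test with each library of UWB1.289 left out in turn, while DESeq2 gave an adjusted p of 0.112.

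MUC1 encodes the other membrane mucin (ENSG00000185499, chromosome 1, 155185824 to 155192916, reverse strand, 8 exons), and 1 protein-coding gene overlaps it on the same strand. In OVCAR3 its level was 54.4, 42.2, 52.0 and 43.3 CPM with DMSO and 68.2, 59.9, 65.1 and 77.2 CPM with olaparib. The UWB1.289 libraries held 43.3, 69.2, 48.2 and 67.7 CPM with DMSO and 105, 128, 119.6 and 112 CPM with olaparib. In each line the lowest olaparib library exceeded the highest DMSO library.

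MUC1 rose in OVCAR3 from 48.0 ± 6.12 to 67.6 ± 7.24 CPM, a log2 fold change of 0.50 (SE 0.106, adjusted p = 0.00167 in edgeR). In UWB1.289 it rose from 57.1 ± 13.3 to 116 ± 10.02 CPM, a log2 fold change of 1.02 (SE 0.125, adjusted p = 4.55e-06 in edgeR), which ranked above 98% of the other genes tested there. The UWB1.289 increase passed the test with each library left out, between 0.91 and 1.13 on the log2 scale. It was under 2-fold without DMSO replicate 1, DMSO replicate 3 or olaparib replicate 2, where no antigen was called.

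MUC1 was the only antigen that rose more than 2-fold with olaparib, and the bases before its start site are therefore shown. The RefSeq sequence (GRCh38.p14, chr1:155192916-155193165, minus strand) covers the 250 bases before the first of its 2 start sites. Capitals mark matches on either strand to 4 short motifs. The AP-1 motif was searched as TGANTCA. The SP1 motif was searched as GGGCGG. The STAT motif was searched as TTCNNNGAA. The TATA motif was searched as TATAAA.
MUC1: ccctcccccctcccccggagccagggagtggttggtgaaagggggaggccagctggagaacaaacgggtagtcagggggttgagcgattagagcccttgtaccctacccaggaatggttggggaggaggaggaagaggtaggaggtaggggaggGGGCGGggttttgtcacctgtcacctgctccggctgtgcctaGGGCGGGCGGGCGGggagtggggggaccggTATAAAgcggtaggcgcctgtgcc
The window holds 4 SP1 matches, of which 3 overlap, and 1 TATA match. Over 35116 promoter windows of the same length, 42.6% hold an SP1 match, 10.7% a TATA match, 6.57% an AP-1 match and 6.57% a STAT match. A match is a description of the letters only.

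**Figure D2:**
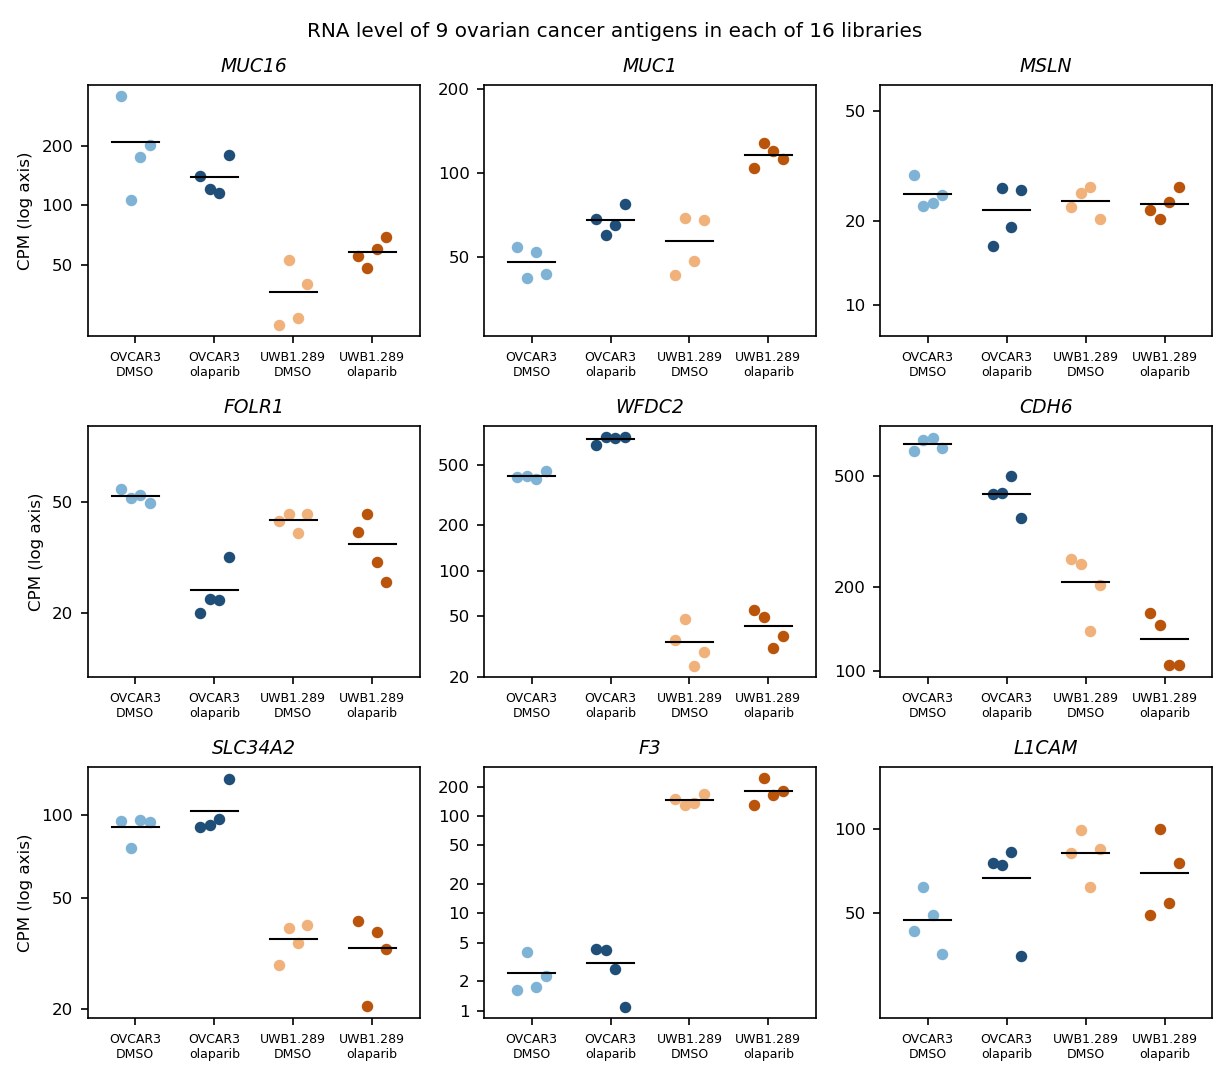
CPM (log axis) of each antigen in each library, with points for the 4 replicates of a group in order and lines for the group mean. FOLR1, CDH6, MUC1 and WFDC2 separate by treatment in OVCAR3. F3, WFDC2, MUC16, CDH6 and SLC34A2 separate by line, and MSLN lies between 16.3 and 29.4 CPM in all 16 libraries.

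MSLN encodes mesothelin (ENSG00000102854, chromosome 16, 760734 to 768865, forward strand, 18 exons). The OVCAR3 libraries held 29.4, 22.8, 23.3 and 25.0 CPM with DMSO and 16.3, 26.4, 19.1 and 25.9 CPM with olaparib. Its level in UWB1.289 was 22.6, 25.4, 26.5 and 20.3 CPM with DMSO and 22.0, 20.5, 23.4 and 26.5 CPM with olaparib. All 4 groups overlapped, at 105 to 189 counts per library. The log2 fold change was -0.19 in OVCAR3 (SE 0.151, adjusted p = 0.393 in edgeR) and -0.03 in UWB1.289 (SE 0.129, adjusted p = 0.927 in edgeR), neither larger than the spread between replicates. MSLN was the only antigen that passed none of the 5 comparisons.

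FOLR1 encodes the folate receptor alpha (ENSG00000110195, chromosome 11, 72189558 to 72196323, forward strand, 4 exons), and 1 long noncoding RNA gene overlaps it on the other strand. Its level in OVCAR3 was 55.4, 51.5, 52.7 and 49.6 CPM with DMSO and 19.9, 22.3, 22.2 and 31.8 CPM with olaparib. UWB1.289 stood at 42.8, 45.1, 38.6 and 45.3 CPM with DMSO and 39.0, 45.4, 30.5 and 25.7 CPM with olaparib. The OVCAR3 groups were far apart, whereas olaparib replicates 1 and 2 of UWB1.289 lay within or above the DMSO range.

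FOLR1 fell in OVCAR3 from 52.3 ± 2.42 to 24.1 ± 5.28 CPM, a log2 fold change of -1.11 (SE 0.127, adjusted p = 2.12e-06 in edgeR), and 1.73% of the other genes tested fell further. The call was made with each library left out, with log2 fold changes between -1.28 and -1.03. In UWB1.289 the log2 fold change was -0.29 (SE 0.138, adjusted p = 0.204 in edgeR). With the replicate number as a block, FOLR1 passed in UWB1.289 as well, at -0.31 (adjusted p = 0.0836 in edgeR), and it passed without olaparib replicate 2, at -0.44 (adjusted p = 0.0306 in edgeR).

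WFDC2 encodes HE4 (ENSG00000101443, chromosome 20, 45469753 to 45481532, forward strand, 4 exons). OVCAR3 stood at 415.5, 419, 401 and 451 CPM with DMSO and 675, 761, 746 and 757 CPM with olaparib. In UWB1.289 it was 35.1, 47.9, 23.6 and 29.2 CPM with DMSO and 54.8, 49.8, 30.8 and 36.9 CPM with olaparib. Each replicate number was higher with olaparib than with DMSO in both lines, but the UWB1.289 groups overlapped.

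WFDC2 rose in OVCAR3 from 421 ± 21.3 to 735 ± 40.2 CPM, a log2 fold change of 0.81 (SE 0.0692, adjusted p = 4.46e-08 in edgeR). In UWB1.289 it was 34.0 ± 10.4 CPM with DMSO and 43.1 ± 11.1 CPM with olaparib, and the log2 fold change was 0.35 (SE 0.180, adjusted p = 0.258 in edgeR). With the replicate number as a block the UWB1.289 change passed, at 0.36 (adjusted p = 0.0306 in edgeR). It also passed without DMSO replicate 2, at 0.55 (adjusted p = 0.0616 in edgeR).

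CDH6 encodes cadherin-6, a kidney and fetal cadherin that is also found on serous ovarian tumours (ENSG00000113361, chromosome 5, 31193686 to 31329146, forward strand, 12 exons). In OVCAR3 its level was 613, 671, 682 and 629 CPM with DMSO and 431, 434, 501 and 353 CPM with olaparib. The UWB1.289 libraries held 251, 241, 139 and 203 CPM with DMSO and 161, 146, 105 and 105 CPM with olaparib. The groups did not overlap in OVCAR3, and in UWB1.289 DMSO replicate 3 lay below olaparib replicates 1 and 2.

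CDH6 fell in both lines. The log2 fold change was -0.59 in OVCAR3 (SE 0.0869, adjusted p = 4.16e-05 in edgeR) and -0.69 in UWB1.289 (SE 0.149, adjusted p = 0.00414 in edgeR). It passed with each library left out in both lines, and in UWB1.289 1.63% of the other genes tested fell further. There are 3 genes that overlap CDH6, among them 2 long noncoding RNA genes on the other strand.

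SLC34A2 encodes the phosphate transporter NaPi2b (ENSG00000157765, chromosome 4, 25648011 to 25678748, forward strand, 13 exons). The OVCAR3 libraries held 95.1, 76.2, 95.3 and 93.9 CPM with DMSO and 90.5, 91.9, 96.4 and 134 CPM with olaparib. Its level in UWB1.289 was 28.9, 39.0, 34.6 and 40.3 CPM with DMSO and 41.6, 20.6, 37.9 and 33.0 CPM with olaparib. The treatment groups overlapped in both lines. The log2 fold changes of 0.20 in OVCAR3 (SE 0.114, adjusted p = 0.224 in edgeR) and -0.10 in UWB1.289 (SE 0.158, adjusted p = 0.768 in edgeR) did not pass the test.

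F3 encodes tissue factor, the cell-surface receptor of coagulation factor VII (ENSG00000117525, chromosome 1, 94529173 to 94541759, reverse strand, 6 exons). In OVCAR3 it stood at 1.65, 4.03, 1.74 and 2.29 CPM with DMSO and at 4.35, 4.21, 2.71 and 1.10 CPM with olaparib, from 8 to 28 counts per library. In UWB1.289 its level was 149, 129, 136 and 168 CPM with DMSO and 129.6, 246, 165 and 179 CPM with olaparib. The treatment groups overlapped in both lines, and every UWB1.289 library was far above every OVCAR3 library. The log2 fold change with olaparib was 0.35 in OVCAR3 (SE 0.399, adjusted p = 0.574 in edgeR), where the low counts leave a wide error, and 0.31 in UWB1.289 (SE 0.134, adjusted p = 0.165 in edgeR). Without olaparib replicate 1 the UWB1.289 change was 0.44 (adjusted p = 0.0172 in edgeR).

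L1CAM encodes the L1 adhesion molecule, known from axon growth (ENSG00000198910, chromosome X, 153861514 to 153886173, reverse strand, 29 exons), and 1 protein-coding gene overlaps it on the same strand and L1CAM-AS1 on the other. Its level in OVCAR3 was 43.0, 62.0, 49.2 and 35.6 CPM with DMSO and 75.5, 74.6, 83.0 and 35.1 CPM with olaparib. UWB1.289 stood at 81.8, 99.1, 61.9 and 85.0 CPM with DMSO and 49.2, 100.4, 54.6 and 75.4 CPM with olaparib. Olaparib replicate 4 of OVCAR3 was the lowest of all libraries, while the other 3 lay above every OVCAR3 DMSO library.

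L1CAM rose in OVCAR3 with a log2 fold change of 0.50 (SE 0.194, adjusted p = 0.0650 in edgeR). Without olaparib replicate 4 it was 0.72 (adjusted p = 5.24e-06 in edgeR), but it no longer passed in 6 of the 8 fits with 1 library left out, and DESeq2 gave an adjusted p of 0.289. In UWB1.289 the log2 fold change was -0.23 (SE 0.166, adjusted p = 0.441 in edgeR). There it was -0.45 (adjusted p = 0.0415 in edgeR) without olaparib replicate 2.

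**Figure D3:**
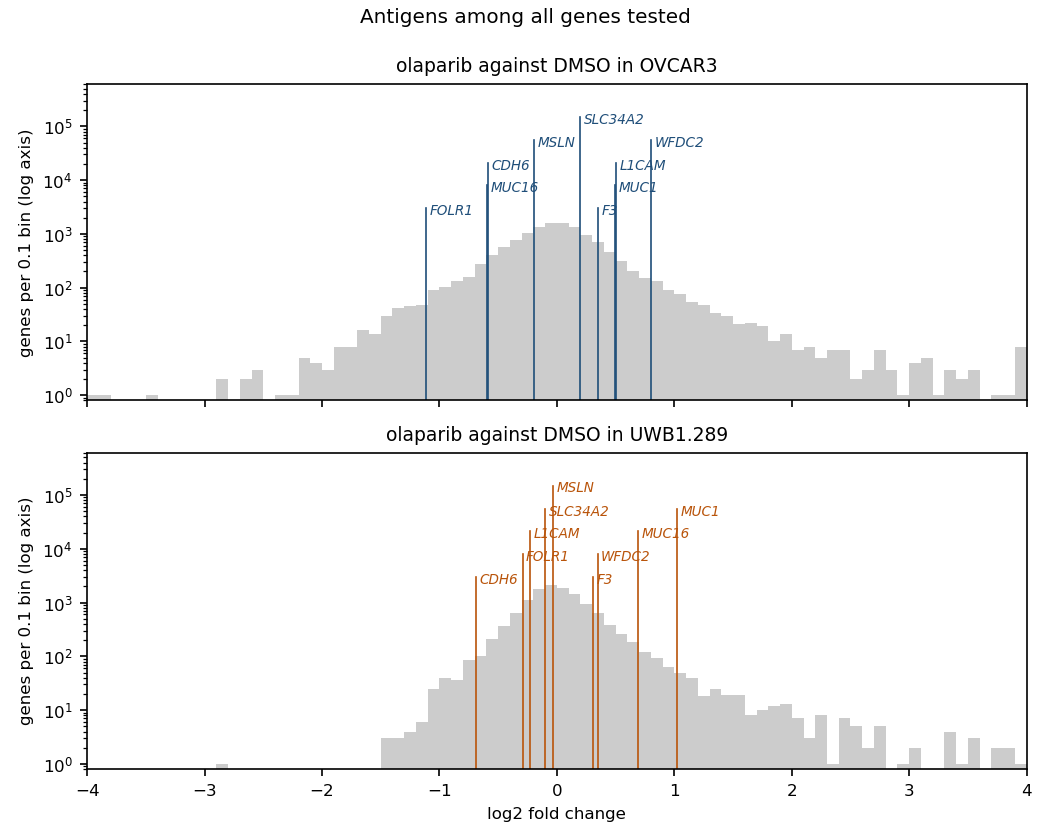
Number of genes (log axis) per bin of 0.1 in log2 fold change (x axis, cut at -4 and 4) with olaparib against DMSO, for 13031 genes in OVCAR3 and 12748 in UWB1.289, with a line at each antigen. FOLR1 in OVCAR3 and CDH6 and MUC1 in UWB1.289 lie in the tails, and MSLN lies in the middle of both distributions.

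The second question was how the lines differ. With DMSO, F3 was higher in UWB1.289, and WFDC2, MUC16, CDH6 and SLC34A2 were lower, each by more than 2-fold. Thus 8 of 9 antigens passed and 5 were called, 1 higher and 4 lower, but 78.5% of the 13366 genes tested passed, 39.2% higher and 39.3% lower, and 38.4% were called, 18.7% and 19.7%. Between the olaparib libraries of the lines 7 of 9 passed and the same 5 antigens were called in the same directions, with 74.9% of 13398 genes past the test (37.8% higher and 37.1% lower) and 36.9% called (18.6% and 18.3%). The DMSO and olaparib libraries of each line also enter the treatment comparisons, and these comparisons are not independent of each other.

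F3 had the largest difference of the 9 antigens. With DMSO it was at 145.6 ± 17.3 CPM in UWB1.289 and 2.43 ± 1.10 CPM in OVCAR3 (SD, n = 4), a log2 fold change of 5.92 (SE 0.156, adjusted p = 3.75e-24 in edgeR) or 60.5-fold. With olaparib the log2 fold change was 5.87 (SE 0.252, adjusted p = 4.34e-13 in edgeR). Of the other genes tested with DMSO, 98.4% had a lower log2 fold change.

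WFDC2 was 12.5-fold lower in UWB1.289 with DMSO, a log2 fold change of -3.64 (SE 0.119, adjusted p = 7.13e-22 in edgeR). With olaparib the log2 fold change was -4.10 (SE 0.142, adjusted p = 1.94e-14 in edgeR), or 17.2-fold lower. No UWB1.289 library exceeded 54.8 CPM and no OVCAR3 library was under 401 CPM.

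Since F3 and WFDC2 differed most between the lines, the 250 bases before their RefSeq start sites (GRCh38.p14) are shown with the same motifs in capitals, F3 from chr1:94541760-94542009 on the minus strand and WFDC2 from chr20:45469503-45469752 on the plus strand.
F3: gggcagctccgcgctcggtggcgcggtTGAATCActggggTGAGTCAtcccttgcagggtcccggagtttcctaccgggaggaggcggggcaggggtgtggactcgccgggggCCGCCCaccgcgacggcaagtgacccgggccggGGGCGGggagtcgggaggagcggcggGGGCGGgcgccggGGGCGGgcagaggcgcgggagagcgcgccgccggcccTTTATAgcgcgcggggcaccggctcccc
WFDC2: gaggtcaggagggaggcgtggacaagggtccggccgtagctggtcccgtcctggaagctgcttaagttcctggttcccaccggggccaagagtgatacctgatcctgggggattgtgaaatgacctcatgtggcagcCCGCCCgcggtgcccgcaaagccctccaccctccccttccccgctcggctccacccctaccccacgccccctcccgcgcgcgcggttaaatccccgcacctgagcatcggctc
The F3 window holds 2 AP-1 matches, 4 SP1 matches and 1 TATA match, and the WFDC2 window holds 1 SP1 match. The RefSeq table gave windows for 6 of 9 antigens. Of the others, MUC16 has 2 start sites, with 1 SP1 match before the first and 1 AP-1 match before the second. SLC34A2 has 1 TATA match before the second of its 2 sites, and L1CAM has 2 SP1 matches before each of its 2 sites. No window of the 6 genes holds a STAT match, which says only that these letters are not in the windows.

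MUC16 was 5.77-fold lower in UWB1.289 than in OVCAR3 with DMSO, a log2 fold change of -2.53 (SE 0.224, adjusted p = 1.93e-11 in edgeR). With olaparib the log2 fold change was -1.26 (SE 0.135, adjusted p = 1.34e-07 in edgeR), or 2.39-fold lower. CDH6 was lower in UWB1.289 by 3.11-fold with DMSO and 3.35-fold with olaparib. Its log2 fold changes were -1.64 (SE 0.107, adjusted p = 1.69e-14 in edgeR) and -1.74 (SE 0.135, adjusted p = 1.57e-09 in edgeR). SLC34A2 was lower by 2.53-fold with DMSO and 3.12-fold with olaparib. Its log2 fold changes were -1.34 (SE 0.102, adjusted p = 7.06e-13 in edgeR) and -1.64 (SE 0.169, adjusted p = 7.65e-08 in edgeR). For these 3 antigens, F3 and WFDC2 no library of one line reached the range of the other line under the same treatment. The lines also did not overlap for FOLR1 with DMSO and for MUC1 with olaparib. Over all genes tested, the lines did not overlap for 69.4% with DMSO and 65.4% with olaparib.

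The 4 remaining antigens differed by less than 2-fold. FOLR1 was lower in UWB1.289 with DMSO, at -0.29 on the log2 scale (SE 0.0931, adjusted p = 0.00685 in edgeR), and higher with olaparib, at 0.53 (SE 0.173, adjusted p = 0.0110 in edgeR). MUC1 was higher in UWB1.289 with olaparib, at 0.77 (SE 0.0996, adjusted p = 1.54e-06 in edgeR). With DMSO it was 0.25 (SE 0.123, adjusted p = 0.0659 in edgeR), a difference for which DESeq2 gave an adjusted p of 0.123 and which passed in 4 of the 8 fits with 1 library left out. L1CAM was higher in UWB1.289 with DMSO, at 0.79 (SE 0.128, adjusted p = 2.09e-06 in edgeR), and the log2 fold change with olaparib was 0.05 (SE 0.223, adjusted p = 0.856 in edgeR). For MSLN it was -0.09 with DMSO (adjusted p = 0.526 in edgeR) and 0.07 with olaparib (adjusted p = 0.723 in edgeR).

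**Figure D4:**
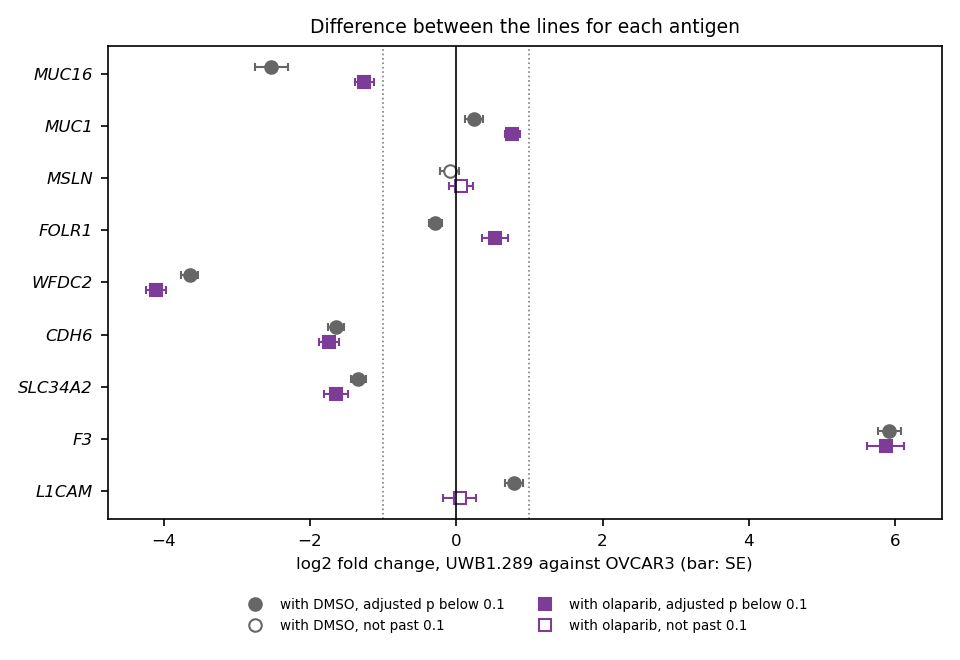
Log2 fold change of each antigen in UWB1.289 against OVCAR3 (x axis) with DMSO (circles) and with olaparib (squares), with bars for the SE; filled symbols passed an adjusted p of 0.1 and dotted lines mark a 2-fold change. F3 lies at 5.92 and 5.87, WFDC2 at -3.64 and -4.10, and FOLR1 lies on opposite sides of 0.

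Ordered by group mean, MUC16 ran from OVCAR3 with DMSO over OVCAR3 with olaparib and UWB1.289 with olaparib to UWB1.289 with DMSO, and only the step between the lines had no overlap. MUC1 was highest in UWB1.289 with olaparib, apart from the other 3 groups, whose neighbours overlapped. FOLR1 was highest in OVCAR3 with DMSO, apart from both UWB1.289 groups, and lowest in OVCAR3 with olaparib. For WFDC2 and CDH6 the 2 OVCAR3 groups and the step to UWB1.289 were separate and the UWB1.289 groups overlapped. SLC34A2 and F3 separated by line alone, L1CAM overlapped at every step of its order, and so did MSLN.

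The third question was whether the olaparib effect differed between the lines, tested as an interaction over all 16 libraries. MUC16, FOLR1 and MUC1 passed, all 3 with the higher value in UWB1.289, and MUC16 was called. Over all 14243 genes tested, 10.7% passed, 4.89% with the higher value in UWB1.289 and 5.79% with the lower, and 3.66% were called, 2% and 1.66%. For MUC16 the difference of the log2 fold changes was 1.28 (SE 0.332, adjusted p = 0.0138 in edgeR), with -0.59 in OVCAR3 and 0.69 in UWB1.289. It passed with each of the 16 libraries left out, and without DMSO replicate 1 of OVCAR3 it was 0.90, under the 2-fold limit.

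For FOLR1 the difference was 0.82 (SE 0.199, adjusted p = 0.00835 in edgeR), with a fall in OVCAR3 and -0.29 in UWB1.289, and it passed with each library left out. For MUC1 it was 0.53 (SE 0.176, adjusted p = 0.0664 in edgeR), and it passed in 7 of 16 fits with 1 library left out. CDH6, which fell in both lines, had a difference of -0.10 (SE 0.193, adjusted p = 0.850 in edgeR). The differences for L1CAM (-0.73, SE 0.292, adjusted p = 0.132 in edgeR) and WFDC2 (-0.46, SE 0.200, adjusted p = 0.180 in edgeR) did not pass. With the replicate number of each line as a block both passed, L1CAM at 0.00735 and WFDC2 at 0.0156 (adjusted p in edgeR), which raised the count from 3 to 5. This block also pairs the OVCAR3 libraries, whose numbers were not taken as pairs, and the share of all genes that passed with it is not given here. SLC34A2 (-0.29, SE 0.212), MSLN (0.16, SE 0.204) and F3 (-0.04, SE 0.389) did not pass.

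The genes around the antigens were followed in lists for the families and pathways of the members. The members of each list that passed with olaparib are counted among those tested. Over all genes tested, 31.2% passed in OVCAR3, 15.3% higher and 15.9% lower with olaparib. In UWB1.289 13.8% passed, 7.71% higher and 6.1% lower. Whether a list departs from these shares was not tested. Of 26 other antibody targets of carcinoma tested in OVCAR3, 6 rose and 9 fell, and of 24 in UWB1.289, 6 rose and 4 fell. The hyaluronan receptor CD44 rose in OVCAR3 from 1.62 to 13.2 CPM (log2 fold change 3.03, SE 0.235, adjusted p = 1.08e-08 in edgeR), and the adhesion molecule MCAM rose from 4.17 to 11.6 CPM (1.49, SE 0.245, adjusted p = 1.40e-04 in edgeR).

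Of 17 other serum proteins of ovarian cancer tested in OVCAR3, 5 rose and 7 fell, and 5 of 16 rose in UWB1.289. Lipocalin-2 (LCN2) rose in both lines, with log2 fold changes of 2.29 in OVCAR3 (SE 0.141, adjusted p = 4.64e-10 in edgeR) and 1.004 in UWB1.289 (SE 0.102, adjusted p = 2.70e-07 in edgeR). The stress cytokine GDF15 and the protease inhibitor TIMP1 rose in OVCAR3, by 1.52 and 1.02, and the secretory-pathway protein AGR2 fell by 1.37. Of the WAP domain genes, the family of WFDC2, 2 of 4 rose in OVCAR3 and 2 of 3 in UWB1.289. Elafin (PI3), an elastase inhibitor, rose from 10.3 to 68.6 CPM in OVCAR3 (log2 fold change 2.74, SE 0.157, adjusted p = 2.22e-10 in edgeR) and from 36.6 to 152 CPM in UWB1.289 (2.06, SE 0.112, adjusted p = 9.52e-12 in edgeR).

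The count table holds 16 listed mucin genes besides MUC16 and MUC1, but only 4 passed the filter on low counts within each line. Of 4 tested in OVCAR3, 3 fell, and of 4 in UWB1.289, 1 rose. MUC15 fell in OVCAR3 by 1.42 on the log2 scale (SE 0.209, adjusted p = 4.16e-05 in edgeR) and MUC20 by 1.12 (SE 0.316, adjusted p = 0.0130 in edgeR), while MUC1 rose in the same libraries. Of 17 enzymes of mucin-type O-glycosylation tested in OVCAR3, 3 rose and 6 fell, and of 16 in UWB1.289, 2 rose and 1 fell. The sialyltransferase ST3GAL1 rose in OVCAR3 by 1.36 (SE 0.261, adjusted p = 6.52e-04 in edgeR), and the core-forming enzyme GCNT3 rose in UWB1.289 by 1.14 (SE 0.398, adjusted p = 0.0778 in edgeR) at 10 or fewer counts in each DMSO library. Of the sheddases and their regulators, which free outer parts of surface proteins, 3 of 13 rose in OVCAR3, and 2 rose and 1 fell of 15 in UWB1.289. The metalloprotease ADAM8 rose in UWB1.289 by 1.24 (SE 0.145, adjusted p = 2.69e-06 in edgeR).

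In the tissue factor pathway, 4 rose and 1 fell of 6 tested in OVCAR3, and 3 rose of 8 in UWB1.289. The protease-activated receptor F2RL1 rose in both lines, by 1.12 in OVCAR3 (SE 0.195, adjusted p = 2.44e-04 in edgeR) and by 1.31 in UWB1.289 (SE 0.466, adjusted p = 0.0832 in edgeR), where the groups overlapped. The protein C receptor PROCR rose in OVCAR3 by 1.20 (SE 0.365, adjusted p = 0.0203 in edgeR), with overlapping groups. In UWB1.289 thrombomodulin (THBD) rose from 21.8 to 51.3 CPM (log2 fold change 1.24, SE 0.169, adjusted p = 2.34e-05 in edgeR). F3 itself passed in neither line.

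Of the L1 family and its partners, 7 rose and 2 fell of 13 tested in OVCAR3, and 1 rose and 1 fell of 12 in UWB1.289. The integrin subunits ITGB3 and ITGA5, receptors for L1 and for matrix proteins, rose in OVCAR3 by 2.85 (SE 0.269, adjusted p = 1.74e-07 in edgeR) and 1.64 (SE 0.201, adjusted p = 5.04e-06 in edgeR). The L1 relative NRCAM rose by 1.71 (SE 0.145, adjusted p = 3.61e-08 in edgeR) and the ankyrin ANK2, which ties L1 proteins to the cytoskeleton, fell by 1.19 (SE 0.113, adjusted p = 1.81e-07 in edgeR). Of the other cadherins, 1 rose and 2 fell of 5 in OVCAR3, and 1 of 7 fell in UWB1.289.

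Of the genes for folate uptake and use, 4 rose and 1 fell of 13 in OVCAR3, and 1 rose and 4 fell of 14 in UWB1.289. Of the phosphate transport genes, 3 of 7 fell in OVCAR3 and 1 of 7 rose in UWB1.289. Of 26 genes for GPI anchor synthesis, which is needed for MSLN and FOLR1 to reach the surface, 1 rose and 5 fell in OVCAR3 and 3 fell in UWB1.289. The genes of these 3 lists that passed changed by less than 2-fold. The 3 relatives of mesothelin in the list did not pass the filter on low counts in any comparison.

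The median log2 fold change over the tested genes of a list was largest in size for the other mucins in OVCAR3, at -0.84 over 4 genes. It was 0.69 in OVCAR3 and 0.39 in UWB1.289 for the tissue factor pathway, and 0.28 and 0.83 for the WAP domain genes. For the L1 family and partners it was 0.23 and 0.09, for the sheddases 0.14 and 0.12, for the serum proteins 0.06 and 0.18 and for the antibody targets 0.01 and 0.12. For the O-glycosylation enzymes it was -0.13 and -0.18, for the cadherins -0.10 and -0.28, and for GPI anchor synthesis -0.10 and -0.04. The folate genes had medians of 0.12 and -0.17, the phosphate transport genes -0.26 and 0.01, and the other mucins in UWB1.289 0.12. Over all genes tested the medians were -0.01 and -0.00.

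**Figure D5:**
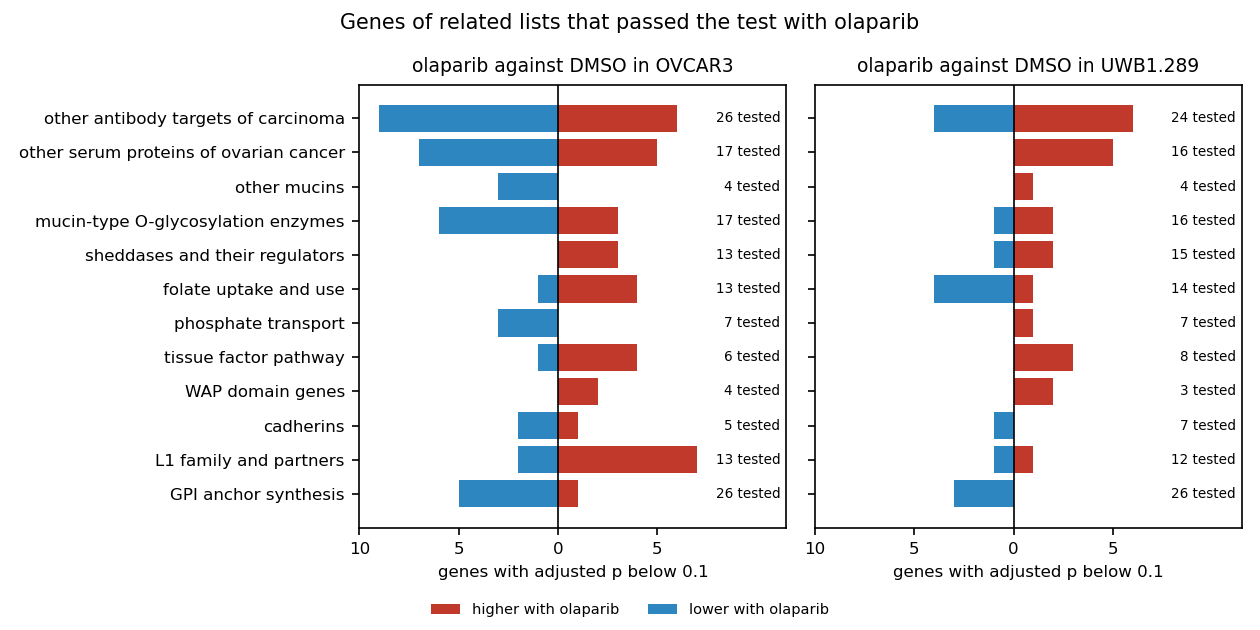
Number of genes of each list that were higher (right of 0) or lower (left of 0) with olaparib at an adjusted p below 0.1 and an average normalized count above 10 (x axis), in OVCAR3 and UWB1.289, with the number tested at the right. The longest bars are the 9 lower antibody targets and the 7 higher L1 family genes and partners in OVCAR3. Over all genes tested, 31.2% passed in OVCAR3 and 13.8% in UWB1.289.

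With DMSO the lists also differed between the lines in both directions, as did all genes tested, with 39.2% higher and 39.3% lower in UWB1.289. Of 26 other antibody targets tested, 11 were higher and 14 lower in UWB1.289. The receptor kinases AXL (log2 fold change 6.39, SE 0.181, adjusted p = 2.12e-23 in edgeR) and MET (5.42, SE 0.119, adjusted p = 4.49e-26 in edgeR) were higher, as was CD44 (4.86, SE 0.180, adjusted p = 1.64e-20 in edgeR). NCAM1 (-5.73, SE 0.130, adjusted p = 1.06e-25 in edgeR) and NECTIN4 (-5.04, SE 0.261, adjusted p = 6.24e-17 in edgeR) were lower, and LY6E had no count in any UWB1.289 DMSO library against 52.6 CPM on average in OVCAR3. Of 18 other serum proteins, 6 were higher and 11 lower in UWB1.289. Clusterin (CLU) was at 32.8 CPM in UWB1.289 and 1308 CPM in OVCAR3 (log2 fold change -5.32, SE 0.123, adjusted p = 1.47e-25 in edgeR), and LCN2 was at 139.5 and 7.05 CPM (4.30, SE 0.113, adjusted p = 3.75e-24 in edgeR).

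Of 8 tissue factor pathway genes tested, 3 were higher and 4 lower in UWB1.289. Those higher beside F3 included TFPI2, an inhibitor of the pathway (log2 fold change 4.46, SE 0.109, adjusted p = 6.11e-25 in edgeR), and THBD, with no count in the OVCAR3 DMSO libraries. The thrombin receptor F2R was lower (-3.98, SE 0.221, adjusted p = 3.69e-16 in edgeR). Among 7 cadherins, 4 were higher and 3 lower. N-cadherin (CDH2) was higher in UWB1.289 (3.86, SE 0.122, adjusted p = 3.08e-22 in edgeR), and E-cadherin (CDH1) was lower (-2.27, SE 0.110, adjusted p = 1.14e-17 in edgeR), as was CDH6 itself. Of 5 other mucins, 3 were higher and 1 lower in UWB1.289. MUC4 was higher (6.56, SE 0.237, adjusted p = 8.33e-21 in edgeR), and MUC15 had at most 1 count in each UWB1.289 DMSO library against 17.7 CPM on average in OVCAR3. FOLR2, the close relative of FOLR1, had at most 2 counts in each OVCAR3 DMSO library and 13.1 CPM on average in UWB1.289.

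Last, the genes whose profile over the 16 libraries was most like that of each antigen were listed, by the smallest root-mean-square difference of centred log2 CPM among 9541 genes with an average count above 50. The closest was ZNF570 for MUC16 (0.376), NUAK1 for MUC1 (0.247), TACO1 for MSLN (0.146), OLMALINC for FOLR1 (0.185), ID2 for WFDC2 (0.263), TTC28 for CDH6 (0.212), SUPT6H for SLC34A2 (0.173), MUC4 for F3 (0.355) and MYL12B for L1CAM (0.219), all in log2 units. The secreted protease inhibitor SLPI, a WAP domain gene like WFDC2, came second for MUC1 (0.251). SCNN1A, an epithelial sodium channel subunit (0.207), and the tight junction gene CLDN3 (0.209) came next after OLMALINC for FOLR1. The 16 libraries share 4 groups, so a small difference describes a like pattern over lines and treatments and no more.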

How the data were processed

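The deposited table holds raw read counts per gene, and no normalized values were used. Per the labels and the study's methods, the authors made QuantSeq 3' libraries, used BBDuk to trim single-end reads and STAR 2.7.9a to align them to hg38, and counted them with featureCounts 2.0.0 on GENCODE release 38. The treatment of strand, multimapping reads and overlapping genes is not given in the sources used here. Total counts lay between 5599571 and 7730228, and a member with about 10 counts in a library has a wide counting error.

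Groups were taken from the sample labels. Tests were run with edgeR 4.0.16 under R 4.3.3 (TMM factors, the filterByExpr filter and the quasi-likelihood F test, with p-values adjusted by Benjamini-Hochberg) on the 8 libraries of each comparison, or on all 16 libraries for the interaction. A gene was called if its adjusted p was below 0.1, its fold change was over 2 and its average normalized count was over 10. SE is the absolute log2 fold change over the square root of F. Scripts were tested on simulated data. Alternatives were DESeq2 1.42.0, its size factors, calls without a fold-change threshold, a minimum average count of 50, no filter on low counts, a limit of 0.05 on the adjusted p, 1 fit of all 16 libraries, a block for the replicate number, and leaving out each library.

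The members and the lists around them were chosen with earlier results of these data known. Named beside the members are, by rule, at most 6 called genes per list with olaparib, at most 3 per direction between the lines, and the nearest profiles. None of 24 pairs of libraries within groups was identical. The chi-square per gene between 2 libraries was 11.7, 8.43 and 13.0 for OVCAR3 olaparib replicate 4 against replicates 1 to 3. Among replicates 1 to 3 it was 3.67 to 4.70, and in the other groups it was at most 8.38. That library therefore differed most from its group over all genes, and it was kept in the tests reported. Same-numbered libraries of the 2 treatments correlated at 0.137 to 0.225 in UWB1.289 after removing group means, over 9542 genes. The numbers were therefore taken to pair the libraries there, which the labels do not state. Olaparib replicate 2 correlated better with DMSO replicate 1, at 0.152, than with its own number, at 0.137. The tests reported have no block, and the blocked values stand beside the results they change. In OVCAR3 the range was 0.0324 to 0.167, which overlaps that of UWB1.289, and the numbers were not taken as pairs. Coordinates are from GENCODE release 44 (GRCh38) and promoters from RefSeq (GRCh38.p14).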

Additional observations from a re-analysis of the deposited data

Results flagged for a closer look

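In 4 of the 36 groups of 4 libraries tested, 1 library stood apart from the other 3 of its group by Dixon's ratio (limit 0.829), and chance alone marks about 1 group in 20. WFDC2 in OVCAR3 with olaparib was 675 CPM in replicate 1 against 746 to 761 CPM in the others. SLC34A2 in OVCAR3 was 76.2 CPM in DMSO replicate 2 against 93.9 to 95.3 CPM, and 134 CPM in olaparib replicate 4 against 90.5 to 96.4 CPM. L1CAM in OVCAR3 with olaparib was 35.1 CPM in replicate 4 against 74.6 to 83.0 CPM. The olaparib cases of SLC34A2 and L1CAM are the same library, OVCAR3 olaparib replicate 4. Of these 4 cases, that of L1CAM moved its log2 fold change most, since without that library the OVCAR3 increase was 0.72 in place of 0.50. Without it SLC34A2 was at 0.05 in place of 0.20, FOLR1 at -1.28 in place of -1.11 and MUC16 at -0.74 in place of -0.59. MUC1 was then at 0.43 in place of 0.50 and CDH6 at -0.51 in place of -0.59.

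The olaparib effect differed between the lines by the interaction test for MUC16 (1.28 on the log2 scale, UWB1.289 minus OVCAR3), FOLR1 (0.821) and MUC1 (0.526). MUC16 fell in OVCAR3 and rose in UWB1.289, but the OVCAR3 fall passed in 3 of the 8 fits with 1 library left out, was -0.21 on the log2 scale without DMSO replicate 1 (adjusted p = 0.426 in edgeR) and had an adjusted p of 0.348 in DESeq2. MUC1 rose in both lines, and FOLR1 fell in OVCAR3.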

How the results depend on the processing

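Over 684 alternatives to the log2 fold changes of the 9 antigens in 5 comparisons, 618 kept the direction and the side of the threshold, 33 no longer passed, 18 passed newly and 15 turned direction. With no fold-change threshold the antigens counted were 6 for olaparib in OVCAR3, 3 in UWB1.289, 8 for the lines with DMSO, 7 for the lines with olaparib and 3 for the interaction, in place of 1, 1, 5, 5 and 1. Leaving out 1 library gave 0 to 1 called antigens for olaparib in UWB1.289 and 0 to 1 for the interaction, and no other count of called antigens changed. For all genes, an average count above 50 left 285, 141, 3245, 3078 and 297 calls, no fold-change threshold gave 4066, 1760, 10497, 10036 and 1521, and leave-one-out counts ran over 654 to 743, 260 to 316, 5100 to 5221, 4992 to 5064 and 451 to 530, against 682, 282, 5127, 4939 and 521. DESeq2 on all 16 libraries split the OVCAR3 calls into 459 higher and 266 lower, against 378 and 304, and with no fold-change threshold the split was 1999 to 2067.

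The 15 changes of direction came from leaving out 1 library, for values that did not pass the test. For MSLN in UWB1.289 (-0.106 to 0.0278 over the libraries left out) the value was 0.0029 without DMSO replicate 2, 0.0278 without DMSO replicate 3 and 0.0215 without olaparib replicate 2, and for SLC34A2 there (-0.219 to 0.0666) it was 0.0666 without olaparib replicate 2. Between the olaparib libraries of the lines, MSLN (-0.0612 to 0.166) was -0.0612 and -0.0045 without OVCAR3 replicates 1 and 3, and L1CAM (-0.165 to 0.194) was -0.165 without UWB1.289 replicate 2 and -0.157 without OVCAR3 replicate 4. In the interaction CDH6 (-0.248 to 0.0047) was 0.0047 without UWB1.289 DMSO replicate 1, and F3 (-0.361 to 0.170) was 0.0381, 0.0880, 0.0906, 0.0954, 0.170 and 0.130 without UWB1.289 DMSO replicate 4, UWB1.289 olaparib replicate 1, OVCAR3 DMSO replicates 1 and 3 and OVCAR3 olaparib replicates 1 and 2. The cause was not tested.

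With the replicate number as a block the all-gene calls were 688, 294, 5145, 4960 and 537. With the block FOLR1 and WFDC2 in UWB1.289 and WFDC2 and L1CAM in the interaction also passed the test, at changes under 2-fold, the other antigens stayed on their side of the threshold, and the number of called antigens did not change in any of the 5 comparisons. The labels do not say for either line that the numbers pair the libraries. The block of the interaction also pairs those of OVCAR3, which were not taken as pairs. In each line 3 of 4 olaparib libraries correlated best with the DMSO library of their own number, so this count does not separate the lines. With DESeq2, 4, 2, 7, 7 and 3 antigens passed in the 5 comparisons, against 6, 3, 8, 7 and 3. Without the filter on low counts, WFDC2 and F3 also passed in UWB1.289 (edgeR adjusted p = 0.0867 and 0.0289), and WFDC2 and L1CAM in the interaction (0.00686 and 3.43e-05). The UWB1.289 passes came with a smaller SE and no larger change. WFDC2 was at 0.33 (SE 0.120) in place of 0.35 (SE 0.180), and F3 at 0.29 (SE 0.0900) in place of 0.31 (SE 0.134). The SE of MUC16 in OVCAR3 was 0.0867 in place of 0.225, while that of WFDC2 there was larger, 0.0777 in place of 0.0692. Depth limits F3 in OVCAR3 most, at 8 to 28 counts per library.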
